A study of Mus musculus with 12 samples.

Results

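The 10 genes described here, Gfap, Vim, Serpina3n, Osmr, Cd44, Steap4, Timp1, Aspg, S1pr3 and Cp, are induced in reactive astrocytes, and they were taken by gene symbol from the 55487 genes of the deposited hippocampal expression table. All 10 symbols were found, each on a single row. RNA of whole hippocampi was sequenced from 6 wild-type (WT) mice and 6 mice lacking upstream stimulatory factor 1 (USF-1 KO), with 1 library per mouse. USF-1 regulates transcription from E-boxes with the sequence CACGTG. The KO is constitutive, so that Usf1 is missing from every cell of the body and not from astrocytes alone. Both groups had the C57Bl/6JRccHsd background, were 3 to 4 months old, were littermates from heterozygous breeding and carried no other modification or treatment according to the labels. The labels give 4 females and 2 males in the WT group and 2 females and 4 males in the USF-1 KO group. The question was whether the higher level of complement C4 in USF-1 KO hippocampus, already known from these libraries, came together with higher levels of genes that mark gliosis.

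Astrocytes answer injury, infection and degeneration with a change of state in which intermediate filament proteins, protease inhibitors, cell surface receptors and metal-handling enzymes are produced in larger amounts. Gfap is the most widely used marker of this state. Much of the response is driven by cytokines of the interleukin-6 family, such as oncostatin M and leukaemia inhibitory factor, which signal through the shared receptor subunit gp130 (gene Il6st), Janus kinases and the transcription factor STAT3, which binds the sequence TTCNNNGAA. C4 is the complement component cleaved after C1q has bound its target, and in brain it is made by astrocytes among other cells.

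Because USF-1 and STAT3 both bind short palindromes, the promoters of the 10 genes were searched for CACGTG and TTCNNNGAA on both strands. The sequences were RefSeq promoter windows of the build GRCm38.p6, from 250 bases before to 50 bases after a transcription start, and 11 windows matched the 10 genes. CACGTG was found in 0 of the 11 windows and in 7.15% of all 32851 windows of the same length. TTCNNNGAA was found in 2 of the 11 windows and in 8.30% of all windows, and both are shown here because they were the only windows of the 10 genes with either motif. The stretches are chr11:102897194-102897303 on the minus strand for Gfap and chr5:7960255-7960364 on the plus strand for Steap4, and the capitals mark the motif, whose first base lies at -2 from the start of Gfap and at -116 from that of Steap4.
Gfap: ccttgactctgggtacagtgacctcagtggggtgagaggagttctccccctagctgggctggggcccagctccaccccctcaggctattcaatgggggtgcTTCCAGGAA
Steap4: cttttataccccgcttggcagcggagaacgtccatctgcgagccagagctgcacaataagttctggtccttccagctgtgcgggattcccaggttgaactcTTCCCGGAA
A match of these letters is a description of the window and was not tested as a binding site. C4b and C4a had no window in the table.

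The deposited values are read counts scaled by 1 size factor for each library, called normalised counts below. Between 23369928 and 32091173 reads per WT mouse and between 21679622 and 30859179 per USF-1 KO mouse were counted on genes. Normalised counts of Usf1 were 1409 ± 284 in the WT and 141 ± 15.0 in the USF-1 KO group (SD, n = 6 each), with every library on the side of its label, and its lowest WT value was 842 in mouse 493. Choroid plexus, the secretory tissue of the ventricles, was unevenly present: the sum of its 10 markers was 166304 for WT 493 and 58912 for WT 490, while the remaining 10 mice had 860 to 2829. Astrocyte RNA was abundant in every library, with 16 of 16 astrocyte identity genes detected at sums between 181113 and 237400. In such bulk samples fewer cells of a type and less RNA per cell cannot be told apart.

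None of the 10 genes passed a test of the difference between the genotypes. With limma on log2(normalised count + 1), fitted to all genes with a mean of at least 10, 8 of the 10 genes were tested and 0 had an adjusted p under 0.05, where 0.9% of the 18221 genes tested passed (0.159% as higher and 0.741% as lower in USF-1 KO mice). At an unadjusted p under 0.05, 0 of the 8 genes passed, against 13.5% of all genes tested, and edgeR and DESeq2 on the recovered reads also gave 0 of 8 both with and without adjustment, where edgeR called 0.829% and DESeq2 3.38% of all genes. The values of the genotypes overlapped in 10 of 10 genes, whereas 1.5% of all genes tested showed no overlap. The median log2 fold change (USF-1 KO minus WT) of the 8 genes was 0.03, beside a median of -0.0006 over all genes tested, with 5 estimates above and 3 below 0. The plot of values by mouse shows the 10 genes beside C4b and C4a.

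**Figure D1:**
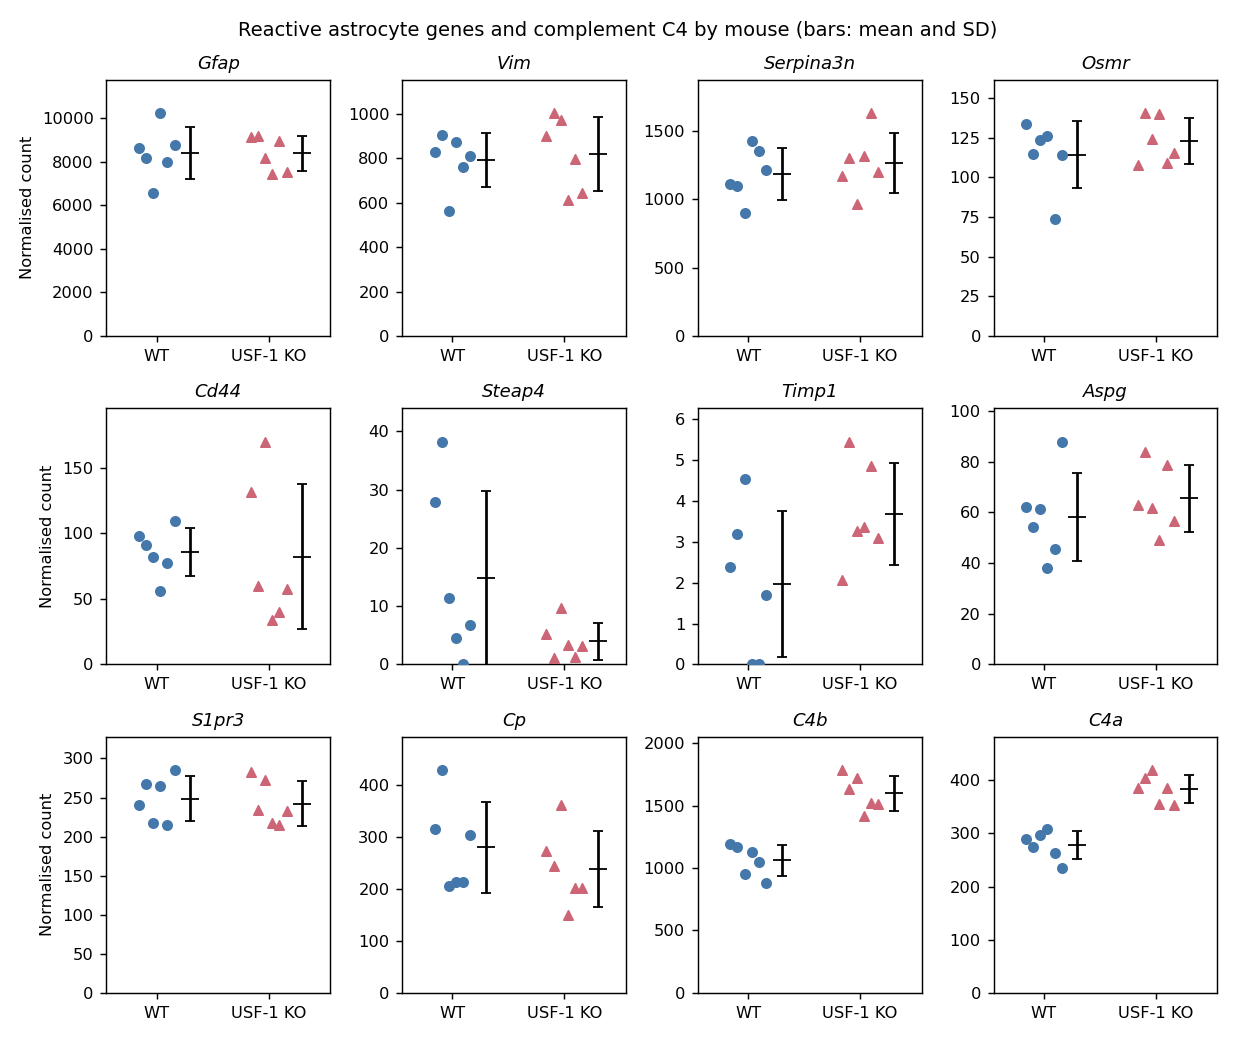
Normalised count of each of the 10 reactive astrocyte genes and of C4b and C4a (vertical axes from 0) in 6 WT mice (circles) and 6 USF-1 KO mice (triangles), with the mean and SD of each group as bars. The groups overlap in all 10 reactive astrocyte genes, whereas in C4b the USF-1 KO mice lie between 1417 and 1784 and the WT mice between 883 and 1195.

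The intermediate filament genes came first, since they define the reactive state by immunostaining. Gfap (ENSMUSG00000020932, chromosome 11 from 102887336 to 102900912, minus strand) encodes the glial fibrillary acidic protein, and its normalised count ran from 6594 over a median of 8393 to 10245 in WT mice and from 7432 over 8579 to 9178 in USF-1 KO mice. The highest and the lowest values both belonged to WT mice, 523 and 522, and all USF-1 KO values fell between them. Its log2 fold change was 0.01 (95% interval -0.19 to 0.20, adjusted p = 0.986 from limma), which on the linear scale places the USF-1 KO level between 87.8% and 115% of the WT level. Vim (ENSMUSG00000026728, chromosome 2 from 13573927 to 13582826), which encodes vimentin, a filament protein shared with ependymal, vascular and meningeal cells, ran from 565 over 819 to 907 in WT mice and from 611 over 850 to 1004 in USF-1 KO mice. The USF-1 KO values spread out, with mice 530 and 564 at 611 and 644, mouse 553 at 796 and mice 482, 484 and 488 at 903 to 1004, and the WT values covered nearly the same span. The log2 fold change of Vim was 0.05 (95% interval -0.25 to 0.34, adjusted p = 0.922 from limma).

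Secreted proteins of the reactive state were represented by a serine protease inhibitor, a metalloproteinase inhibitor and a copper-carrying ferroxidase. Serpina3n (ENSMUSG00000021091, chromosome 12 from 104406729 to 104414329), an acute-phase protease inhibitor, ran from 897 over 1164 to 1425 in WT mice and from 968 over 1250 to 1629 in USF-1 KO mice. Mouse USF-1 KO 553 was the only one above every WT mouse, and the other 5 lay within the WT range. The log2 fold change was 0.09 (95% interval -0.17 to 0.36, adjusted p = 0.788 from limma). Serpina3n belongs to a cluster of similar genes. The 13 other Serpina3 genes of the table together held 1.08% to 3.74% of the family's summed normalised count in a mouse. Reads matching several of these genes may have been left uncounted, so this share does not bound the effect of misplaced reads. How the counting treated such reads is not given in the sources used here.

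Timp1 (ENSMUSG00000001131, X chromosome from 20870166 to 20874735), which inhibits matrix metalloproteinases, is among the most strongly induced genes of reactive astrocytes, and it was close to the detection limit in these hippocampi. It ran from 0 over 2.05 to 4.54 in WT mice and from 2.06 over 3.31 to 5.45 in USF-1 KO mice, which corresponds to 0 to 4 reads and 2 to 5 reads per library. All 6 USF-1 KO mice lay above the WT median, with mice 484 and 553 above every WT mouse and the other 4 within the WT range. Its mean was under the limit for the test. Compared alone on the log2 scale, the difference was 0.89 (two-sided exact permutation test over the 924 assignments of 6 mice to each genotype, p = 0.0844). Timp1 lies wholly inside the span of Syn1, a neuronal gene on the opposite strand with a mean of 15985, and shares 0 exonic bases with it.

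Cp (ENSMUSG00000003617, chromosome 3 from 19957054 to 20009145) encodes ceruloplasmin, and ran from 206 over 259 to 428 in WT mice and from 150 over 222 to 361 in USF-1 KO mice. WT 493 was the highest mouse and USF-1 KO 530 the lowest. The log2 fold change was -0.23 (95% interval -0.69 to 0.23, adjusted p = 0.688 from limma). Without WT 490 and WT 493, the 2 mice with the high choroid plexus level, it was -0.0088 (adjusted p = 0.995 from limma). The part of choroid plexus in the level of Cp was not tested. Cp shares 108 exonic bases with Hps3, a gene of lysosome-related organelles on the opposite strand, which fell from 401 ± 26 to 335 ± 9.56 (SD, n = 6 each, log2 fold change -0.26, adjusted p = 0.0336 from limma, but 0.0827 with sex as a further term and 0.0581 to 0.107 without any of WT 490, 523 and 547 and USF-1 KO 482, 484, 530, 553 and 564), and whether the counting used strand is not given in the sources used here.

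The 3 receptors stand at different entry points of the response. Osmr (ENSMUSG00000022146, chromosome 15 from 6813577 to 6874969, minus strand), the receptor subunit for oncostatin M, ran from 73.6 over 119 to 134 in WT mice and from 108 over 120 to 141 in USF-1 KO mice. WT 547 lay apart from the other 5 WT mice at 114 to 134. The log2 fold change was 0.12 (95% interval -0.17 to 0.41, adjusted p = 0.751 from limma), and without WT 547 it was -0.0009.

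Cd44 (ENSMUSG00000005087, chromosome 2 from 102811141 to 102901665, minus strand) encodes a surface receptor for hyaluronan, and ran from 56.3 over 86.5 to 109 in WT mice and from 33.6 over 58.9 to 170 in USF-1 KO mice. The USF-1 KO mice split widely, with mice 482 and 488 at 132 and 170, above every WT mouse, mice 530 and 553 at 33.6 and 40.0, below every WT mouse, and mice 484 and 564 at 60.0 and 57.8. The coefficient of variation was 67.5% in USF-1 KO mice and 21.4% in WT mice, and a difference in spread was not tested. Its log2 fold change of -0.28 had the widest interval of the 8 genes tested (-1.02 to 0.46, adjusted p = 0.771 from limma). The estimate was -0.04 with edgeR and -0.05 with DESeq2, and over 24 alternative settings it ran from -0.54 to -0.04. S1pr3 (ENSMUSG00000067586, chromosome 13 from 51408639 to 51422797), a receptor for sphingosine-1-phosphate, ran from 215 over 253 to 285 in WT mice and from 215 over 234 to 282 in USF-1 KO mice. Its ranges were nearly identical, with a log2 fold change of -0.03 (95% interval -0.23 to 0.16, adjusted p = 0.908 from limma). It shares 45 exonic bases with Gm32834, a non-coding gene on the opposite strand with a mean of 19.8.

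The remaining genes encode enzymes. Aspg (ENSMUSG00000037686, chromosome 12 from 112106679 to 112127559), an asparaginase, ran from 37.9 over 57.7 to 87.9 in WT mice and from 49.3 over 62.3 to 84.0 in USF-1 KO mice. WT 573 was the highest mouse and all USF-1 KO values lay inside the WT range. The log2 fold change of 0.20 (95% interval -0.21 to 0.60, adjusted p = 0.699 from limma) was the largest estimate above 0 among the 8 genes. Steap4 (ENSMUSG00000012428, chromosome 5 from 7960457 to 7982213), a metalloreductase of inflammation, ran from 0 over 9.09 to 38.2 in WT mice and from 1.09 over 3.23 to 9.77 in USF-1 KO mice, or 0 to 36 and 1 to 12 reads per library. Its highest values, 38.2 and 27.8, were those of WT 493 and WT 490, the 2 mice with the high choroid plexus level, and their part in it was not tested. The mean of Steap4 was under the limit for the test, and compared alone the log2 difference was -1.13 (two-sided exact permutation test, p = 0.223).

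Per kilobase of exon, the mean WT levels (normalised counts per kb) descended from Gfap at 1993 ± 282 over Serpina3n at 573 ± 92.8, Vim at 167 ± 25.7, S1pr3 at 55.6 ± 6.47, Cp at 29.2 ± 9.12, Aspg at 16.5 ± 4.92, Cd44 at 12.7 ± 2.70, Osmr at 9.45 ± 1.76 and Steap4 at 4.69 ± 4.74 to Timp1 at 2.22 ± 2.02 (SD, n = 6). Down to Aspg over Cd44, the upper gene of each neighbouring pair was higher in 6 of 6 WT mice. The ranges over mice overlapped between Cp and Aspg, Aspg and Cd44, Cd44 and Osmr, Osmr and Steap4, and Steap4 and Timp1. Timp1 and Osmr, which are known for low levels in resting astrocytes, lay at the lower end in USF-1 KO mice too, at 4.14 ± 1.40 and 10.2 ± 1.21 per kb.

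Complement C4 differed between the genotypes in the same libraries. C4b (ENSMUSG00000073418, chromosome 17 from 34728380 to 34743882, minus strand) ran from 883 over 1085 to 1195 in WT mice and from 1417 over 1577 to 1784 in USF-1 KO mice. Every USF-1 KO mouse lay above every WT mouse, and the log2 fold change was 0.59 (95% interval 0.42 to 0.76, adjusted p = 0.00283 from limma), or 151% of the WT level. Its paralogue C4a, with 278 ± 26.5 in WT and 384 ± 26 in USF-1 KO mice (SD, n = 6 each), had a log2 fold change of 0.47 (95% interval 0.31 to 0.62, adjusted p = 0.00636 from limma), and since the genes are near-identical, how the counting split reads between them is uncertain. C4 was chosen for comparison because it was known to be higher here, so its own difference is a description. The position of other intervals against its lower bound is a description too. The interval of 6 of the 8 tested genes, Gfap, Vim, Serpina3n, Osmr, S1pr3 and Cp, ended below the lower bound of C4b, and those of Cd44 and Aspg reached past it, as the plot of fold changes shows. With sex as a further term, the interval of Osmr ended at 0.49, past the lower bound of C4b at 0.39. Those of Gfap, Vim, Serpina3n, S1pr3 and Cp still ended below it.

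**Figure D2:**
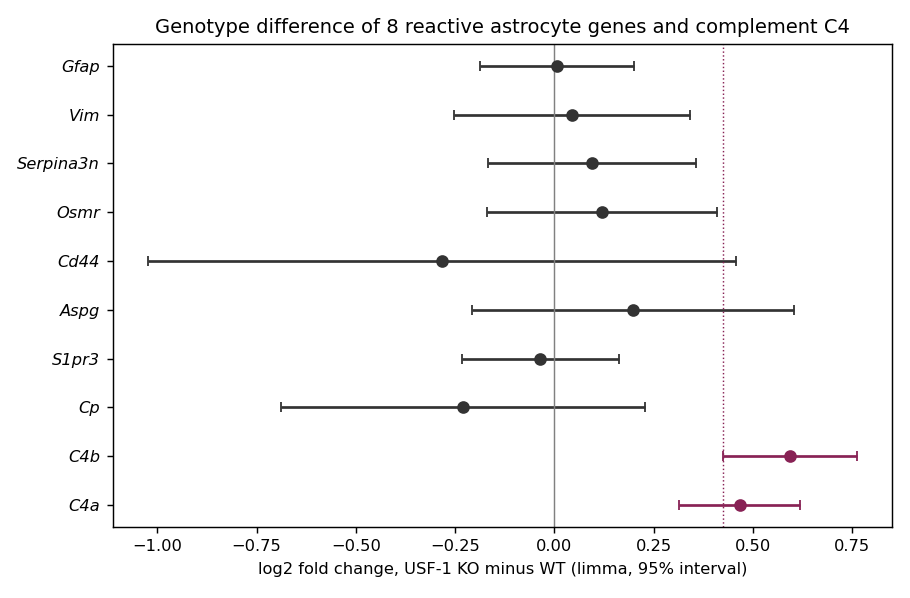
Log2 fold change (USF-1 KO minus WT, horizontal axis) from limma with its 95% interval for the 8 reactive astrocyte genes tested (grey) and for C4b and C4a (purple), 6 mice per genotype. The dotted line marks the lower bound of C4b at 0.42, and the intervals of all 8 reactive astrocyte genes include 0.

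C4b was also set against each gene inside the same mouse, as the log2 ratio of C4b to the gene. Since C4b was chosen for its higher level in these libraries, a gene with a difference near 0 returns the difference of C4b in this ratio, and the ratios are given as a description with no p. The ratio to Gfap was higher by 0.59 in USF-1 KO mice and the ratio to S1pr3 by 0.63, in each case with 6 of 6 USF-1 KO mice above every WT mouse. The ratio to Vim was higher by 0.55 and that to Cp by 0.82, with 5 of 6 USF-1 KO mice above every WT mouse in both.

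The spread of the other genes was wider against the size of the difference. The ratio of C4b to Serpina3n was higher by 0.50 and that to Cd44 by 0.88, with 4 of 6 USF-1 KO mice above every WT mouse, and the ratio to Osmr by 0.47, with 1 of 6. For Steap4 (1.73), Aspg (0.40) and Timp1 (-0.30) 0 of 6 USF-1 KO mice lay above every WT mouse. Only the ratios to Gfap and S1pr3 showed no overlap between the genotypes, and those to all other genes overlapped although C4b alone did not.

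Within a genotype, C4b and the 10 genes were compared from mouse to mouse, which asks whether mice with more C4b also had more of the reactive astrocyte genes. Relations were computed separately in each genotype, because C4b separates the groups, and 20 were computed in all, each on 6 mice with exact permutation p over all pairings. In USF-1 KO mice, Pearson's r with C4b was 0.92 for S1pr3 (Spearman's rho 0.83, exact p = 0.00972 and 0.0583), 0.91 for Cd44 (rho 0.89, exact p = 0.0125 and 0.0333) and 0.90 for Cp (rho 0.94, exact p = 0.0125 and 0.0167). After adjustment over the 20 relations, p for r was 0.0833 for each of these 3 genes, so 0 of 20 relations passed the threshold. The smallest exact p that 6 mice allow is 0.00278, and a single relation at that p would have had an adjusted p of 0.0556, so that 1 relation alone could not have passed.

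Without the 2 mice farthest from the median of C4b, r was 0.86 for S1pr3, 0.86 for Cd44 and 0.96 for Cp, on 4 mice. Vim followed with r of 0.84 (rho 0.77, exact p = 0.0486 and 0.103, adjusted 0.243 for r). Gfap had an r of 0.63, whereas that of Serpina3n was -0.58. In WT mice the r of S1pr3 was -0.02, of Cd44 -0.30, of Cp 0.34 and of Vim 0.55, and the difference between the genotypes was not tested. Without the 2 WT mice farthest from the median of C4b, r was 0.64, 0.46, 0.72 and 0.68 in this order, on 4 mice. With single WT mice left out, r ran from -0.33 to 0.74 for S1pr3 and from -0.57 to 0.19 for Cd44. For Cp it ran from 0.03 to 0.71 and for Vim from 0.46 to 0.92. Mice 482 and 488 held the highest C4b (1784 and 1719), Cd44, S1pr3 and Cp values of the USF-1 KO group, as the plot against C4b shows. The relations did not rest on either of them alone, since r was 0.85 for S1pr3, 0.89 for Cd44 and 0.98 for Cp without mouse 482, and 0.90, 0.94 and 0.96 without mouse 488. The same 2 mice had the highest summed level of the 8 fibroblast and meningeal markers among USF-1 KO mice, 2709 and 3689 against 1702 to 2040 in the other 4. Pdgfra, with a mean of 1191, was the most abundant gene of this sum. As the mean log2 deviation of the 8 genes, each from its own mean, mice 482 and 488 had 0.13 and 0.76 against -0.71 to -0.24. The part of fibroblast and meningeal cells was not tested.

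**Figure D3:**
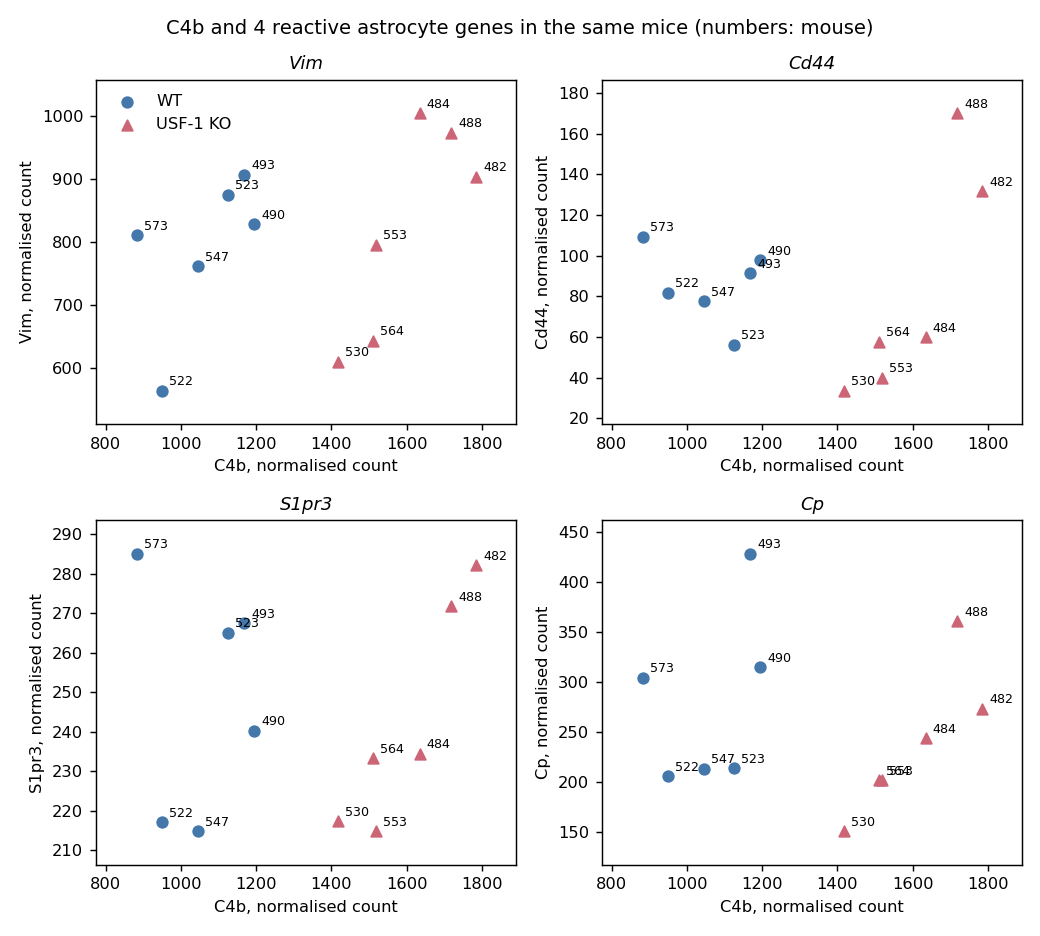
Normalised count of Vim, Cd44, S1pr3 and Cp (vertical axes) against that of C4b (horizontal axes) in WT mice (circles) and USF-1 KO mice (triangles), 1 point per mouse with its number. Mice 482 and 488 stand at the upper right in Cd44, S1pr3 and Cp, and the clouds of the genotypes lie side by side along C4b, not one above the other.

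Several of the 10 genes are also made by cells around the hippocampus. Each was therefore set against 9 lists of cell type markers over the 12 mice, with 90 relations in all. This comparison was added after the values had been seen. The value of a list in a mouse was the mean log2 deviation of its genes, each from its own mean over the 12 mice. Cp followed the fibroblast and meningeal list, which includes collagen and decorin genes: r was 0.96 and rho 0.90 (permutation tests, adjusted p = 0.0009 and 0.00765), r was 0.92 without the 2 mice farthest from the median, and it was 0.97 within WT and 0.97 within USF-1 KO mice. Vim followed the ependymal list, with r of 0.89 and rho of 0.91 (permutation tests, adjusted p = 0.00585 and 0.00765), 0.95 without the 2 farthest mice, 0.84 within WT and 0.95 within USF-1 KO mice. The other 88 relations did not pass for r.

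All 8 fibroblast and meningeal genes were detected, with summed levels of 1880 to 3526 in WT mice and 1702 to 3689 in USF-1 KO mice, and all 8 ependymal genes, with 376 to 1687 and 320 to 1133. Neither sum separated the genotypes. Steap4 had an r of 0.76 with the fibroblast and meningeal list (adjusted p = 0.0889 by permutation) and of 0.71 with the choroid plexus list (adjusted p = 0.114 by permutation), which were 0.53 and 0.03 without WT 490 and WT 493. Cp had an r of 0.74 with the choroid plexus list (adjusted p = 0.0889 by permutation), which was 0.59 without the same 2 mice. Gfap reached its largest r with the ependymal list, at 0.59 (adjusted p = 0.239 by permutation), and Serpina3n had an r of -0.70 with the astrocyte identity list (adjusted p = 0.114 by permutation). Among the 45 pairs of the 10 genes, the largest r values were 0.79 between Cp and Cd44 and 0.77 between Vim and Gfap (adjusted p = 0.0585 for both by permutation), so that 0 pairs passed the threshold. The plot against cell type markers shows Cp, Vim and Steap4 against summed counts, not against the list values from which r was computed.

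**Figure D4:**
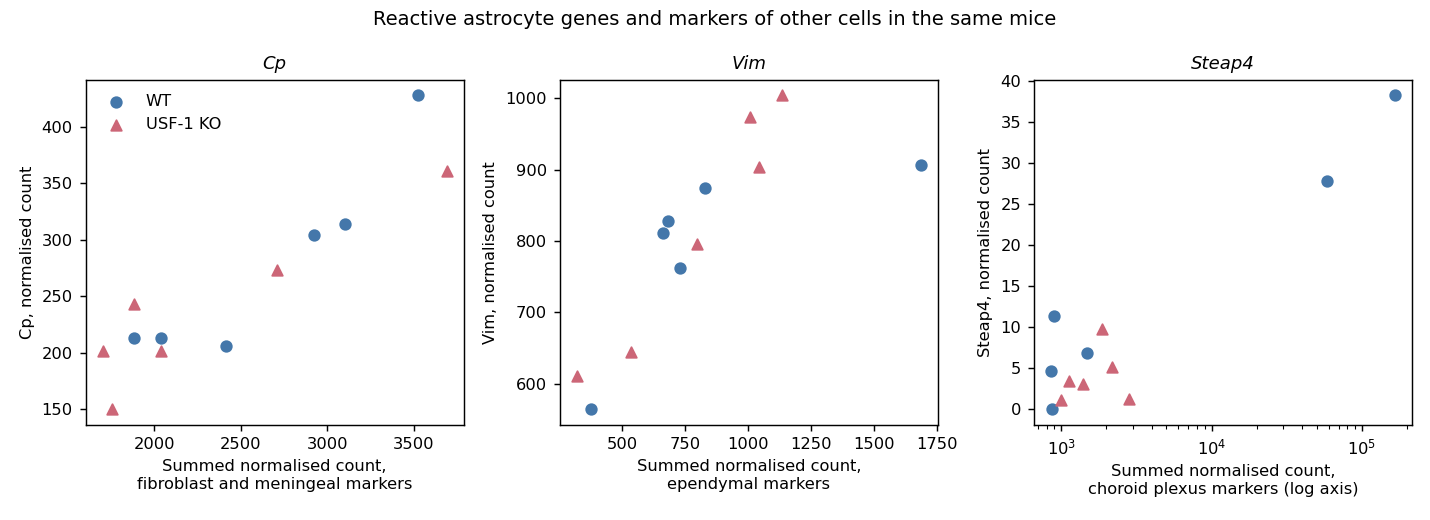
Normalised count of Cp, Vim and Steap4 (vertical axes) against the summed normalised count of fibroblast and meningeal, ependymal and choroid plexus markers (horizontal axes, the last on a log scale), 1 point per mouse, WT as circles and USF-1 KO as triangles. Cp and Vim climb with their marker sums in both genotypes, and the 2 highest Steap4 values belong to the 2 WT mice with choroid plexus sums of 58912 and 166304. Pdgfra, with a mean of 1191, is the most abundant gene in the fibroblast and meningeal sum.

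Sex was unbalanced over the genotypes and was therefore entered as a term. In a limma fit with genotype and sex, 0 of the 8 genes passed for sex, where 0.0549% of all genes tested passed, and the lowest unadjusted p was 0.0304 for Osmr, with a log2 difference (male minus female) of -0.30 (adjusted p = 0.734 from limma). With sex in the fit, the genotype difference of Osmr was 0.22 (95% interval -0.05 to 0.49, adjusted p = 0.523 from limma) and that of Gfap was -0.01, and C4b remained at 0.57 (adjusted p = 0.00918 from limma). The interaction of genotype and sex passed in 0 of the 8 genes and in 0% of all genes tested, with a lowest unadjusted p of 0.162 for Aspg, on as few as 2 mice of a sex and genotype.

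Further genes of the reactive state also had 0 calls. Of 8 other genes induced in most reactive astrocytes, 6 were tested and 0 passed (median log2 fold change -0.16). Synm, which encodes the filament protein synemin, had 1458 ± 131 in WT and 1349 ± 78.8 in USF-1 KO mice (adjusted p = 0.456 from limma), Nes, which encodes nestin, 294 ± 26.4 and 327 ± 52.6 (adjusted p = 0.578), and Lgals1, which encodes galectin-1, 317 ± 69.7 and 268 ± 27.1 (adjusted p = 0.434; SD, n = 6 each). Lcn2, an injury-induced lipocalin, ran only from 0 to 4.36 over the 12 mice. It stood with Timp1 among genes below the limit on the mean.

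Of 11 genes linked to astrocytes activated by neuroinflammation, 11 were tested and 0 passed (median 0.02). Fkbp5, a chaperone induced by glucocorticoids, had 1273 ± 123 in WT and 1272 ± 178 in USF-1 KO mice, and Amigo2, a cell adhesion gene, had 580 ± 90.7 and 565 ± 80.4 (SD, n = 6 each). Of 12 genes linked to ischaemia, 9 were tested and 0 passed (median 0.03), with 2 at an unadjusted p under 0.05 in opposite directions, Cd109 (log2 fold change 0.62, adjusted p = 0.315 from limma) and B3gnt5 (-0.72, adjusted p = 0.238 from limma), which were chosen after their values were seen.

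Transcript levels of the gp130 and STAT3 pathway, which drives much of the reactive response, were compared next. They do not measure the activity of the pathway, which was not tested. Of 15 genes of gp130 and STAT3 signalling, 11 were tested and 0 passed (median -0.07). Il6st, the shared receptor subunit, had 2188 ± 235 in WT and 1980 ± 174 in USF-1 KO mice (adjusted p = 0.424 from limma), its partner Lifr 1242 ± 82.4 and 1240 ± 51.3 (adjusted p = 0.994), and the kinase Jak1 4447 ± 186 and 4660 ± 242 (adjusted p = 0.521; SD, n = 6 each). Socs3, the feedback inhibitor that STAT3 induces, had 39.1 ± 12.2 and 30.8 ± 12.9 (adjusted p = 0.596), and among the ligands Lif had 24.3 ± 9.04 and 36.0 ± 4.06 (unadjusted p = 0.0108, adjusted 0.202 from limma), while Osm, Il6 and Cntf stayed under the limit on the mean. Socs3 and the ligands were named after their values were seen.

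Astrocyte identity genes, which mark astrocytes whatever their state, were tested in 16 of 16 cases with 0 calls by limma (median -0.02), whereas DESeq2 called 1 of them lower. The glutamate transporter Slc1a2 had 68065 ± 8215 in WT and 68746 ± 4014 in USF-1 KO mice, and glutamine synthetase Glul 32716 ± 3560 and 29601 ± 1745 (adjusted p = 0.938 and 0.425 from limma; SD, n = 6 each). Microglial genes, of which 10 of 10 were tested, also had 0 calls by limma and 1 lower by DESeq2, with a median of -0.19 and 5 at an unadjusted p under 0.05 (limma), all of them with lower estimates in USF-1 KO mice, where 13.5% of all genes tested had such a p. Csf1r, the receptor on which microglia depend for survival, had 2552 ± 369 in WT and 2136 ± 92.7 in USF-1 KO mice (SD, n = 6 each, adjusted p = 0.168 from limma). Of 10 genes of activated microglia 7 were tested and 0 passed, with Apoe at a log2 fold change of 0.11 (adjusted p = 0.354) and Ctsd at -0.24 (adjusted p = 0.155 from limma).

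Of 14 other complement genes, 13 were tested and 1 passed, Cd46, which encodes a membrane regulator that limits C4b and C3b deposition and which rose from 234 ± 12.4 to 288 ± 18.1 (SD, n = 6 each, log2 fold change 0.30, adjusted p = 0.0312 from limma). With sex as a further term the call for Cd46 was lost (log2 fold change 0.27, adjusted p = 0.0819 from limma), and 0 of the 13 genes passed as higher. It was also lost without any of WT 490, 523, 547 and 573 and USF-1 KO 482, 484, 488 and 564 (adjusted p of 0.0508 to 0.0893 from limma). The C1q genes C1qa, C1qb and C1qc, made by microglia and named after their values were seen, had log2 fold changes of -0.22, -0.18 and -0.21 (adjusted p = 0.139, 0.174 and 0.188 from limma). C3, the marker often used for astrocytes of the neuroinflammatory type, ran from 6.82 to 126 over the 12 mice and had an adjusted p of 0.812.

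Among the remaining cell type lists, endothelium, mural cells, fibroblasts and meninges, choroid plexus, ependyma and neurons had 0 calls each by limma, and DESeq2 called 5 of the 10 choroid plexus genes lower. Oligodendrocyte genes had 0 calls by limma with a median of -0.68, and 8 of 8 had an unadjusted p under 0.05 with lower estimates in USF-1 KO mice (13.5% of all genes tested had such a p), and DESeq2 called 8 of 8 lower. Their summed level was 149121 to 192915 in 5 WT mice, 88864 in WT 522 and 76674 to 117035 in USF-1 KO mice. WT 522 was also the lowest WT mouse in Gfap, Vim, Serpina3n and Cp, and without it the log2 fold changes of Gfap and Vim were -0.06 and -0.05. The part of oligodendrocyte content in these values was not tested. The plot of all lists sets the reactive astrocyte genes beside them.

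**Figure D5:**
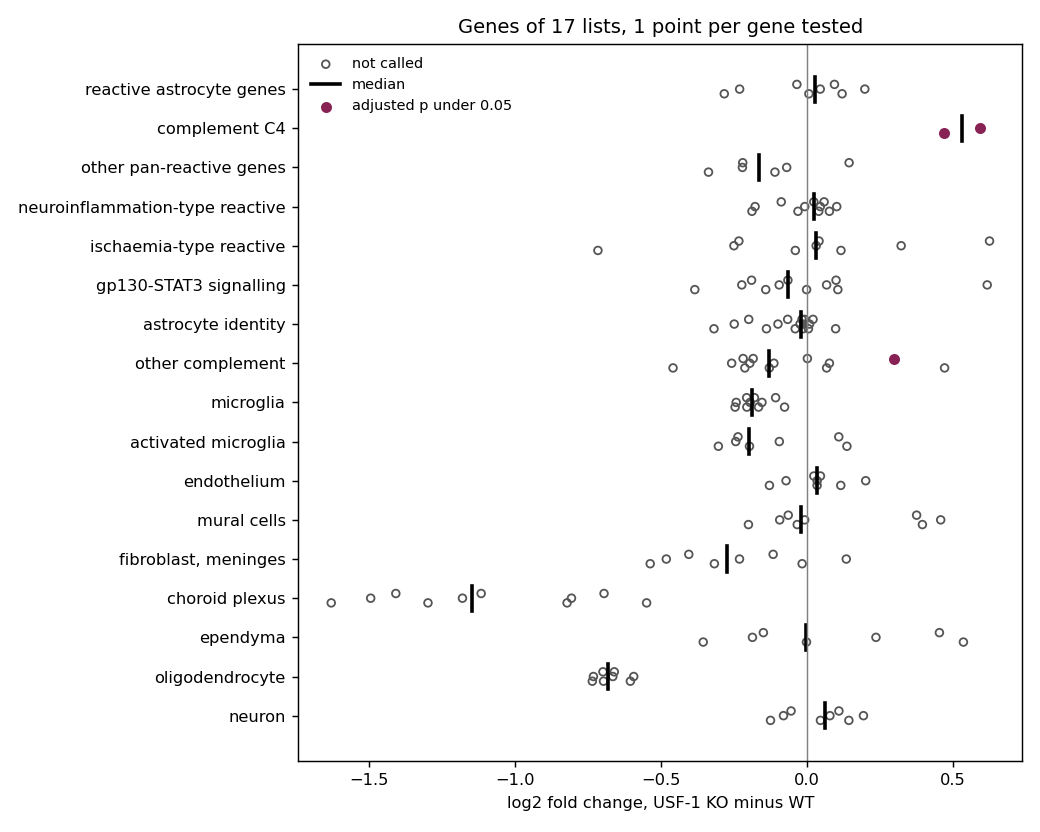
Log2 fold change (USF-1 KO minus WT, horizontal axis) of each gene tested in 17 lists (rows), with open circles for genes not called, filled circles for an adjusted p under 0.05 and a bar at the median of each list. The reactive astrocyte genes lie between -0.28 and 0.20 around a median of 0.03, and the filled circles are C4b, C4a and Cd46 (limma).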

How the data were processed

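Hippocampal RNA of 12 mice, 6 WT and 6 USF-1 KO, was extracted with a Qiagen kit, and libraries were made with the NEBNext Ultra II kit, 1 per mouse. The deposited signal is a read count per gene that the authors divided by a DESeq2 size factor of the library, after alignment with STAR. The submitters' processing notes name STAR 2.5.0a, edgeR 3.22.2 and the build mm10; counter, annotation and strandedness are not given in the sources used here, and 99.26% of the gene identifiers shared with GENCODE M21 have the same coordinates. Whole reads were recovered in every library, where 100% of the values were multiples of 1 step (within 0.01 of a read), and with them edgeR called 151 and DESeq2 616 of 18221 genes, against 164 with limma. No library repeated another, as chi-square divided by its degrees of freedom was at least 4.536 for any pair. The labels do not tie mice to litters, and 12 of 12 columns were used.

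Values were log2-transformed after adding 1 and fitted by genotype in limma 3.58.1 (R 4.3.3), trend option on, for genes whose mean was at least 10; tests were two-sided, p-values were adjusted over all these genes after Benjamini-Hochberg, and the threshold was 0.05. Fold changes on this scale understate those of low genes. Single values were compared with exact permutation tests in Python 3.11.15, and relations over 12 mice with 100000 permutations. A planned exact test of the ratio of C4b to each gene is not reported, because C4b had been chosen for its difference. Levels per kb used the exon union of GENCODE M21. Alternatives changed the pseudocount (0.5, 5), the lowest mean (none, 50), the scaling (equal library totals, quantile), the terms (sex added), the trend (off), the tool (DESeq2 1.42.0, or edgeR 4.0.16 with quasi-likelihood and TMM), the threshold (0.1) or the mice (each left out in turn, or the 2 with the highest choroid plexus level). The test was checked on simulated libraries: of 200 genes changed 2-fold limma found 200, besides 16 others among 18125, and it called 0 genes where none was changed. The simulation gave every gene the same low dispersion, without differences of sex or tissue content, and tried no change under 2-fold. It therefore does not give the power of the test for the 10 genes, some of which varied more between mice.

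The 10 genes, C4, the marker lists and the tests were chosen with earlier results of these data known. The lists were written from general knowledge, hippocampus expresses genes of each, and Serping1 stands in 2 of them. Genes named from a list were those past the threshold or otherwise its 2 most abundant (3 for other reactive genes and gp130 signalling), besides those said to be chosen after their values were seen. For 1 gene under this rule no values are reported. The sexes are those of the labels, which differ from a figure legend of the study. Plots were drawn with matplotlib 3.10.9.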

Additional observations from a re-analysis of the deposited data

Results flagged for a closer look

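Osmr in WT 547 was flagged because its normalised count of 73.6 lay far below the other 5 WT mice, at 114 to 134, a gap of 0.679 of the whole range of the group. It was 1 of 24 groups of 6 mice examined (10 reactive astrocyte genes, C4b and C4a in both genotypes), where chance gives about 1.2. The library held 73 reads on Osmr, its other values are given in the plot by mouse, and the cause was not tested.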

How the results depend on the processing

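The count of reactive astrocyte genes called was 0 in every alternative, including each mouse left out and a threshold of 0.1. Over 24 alternatives the log2 fold change of C4b ran from 0.54 to 0.67 and that of C4a from 0.42 to 0.51, with adjusted p of at most 0.0109 and 0.0354. Estimates near 0 changed sign without passing any threshold. Gfap did so with quantile normalisation (-0.031), sex as a covariate (-0.0087), edgeR (-0.0040), DESeq2 (-0.0017) and single mice left out (range -0.061 to 0.066). S1pr3 did so with quantile normalisation (0.0076), and over single mice left out it ran from -0.080 to 0.0066, Vim from -0.049 to 0.13 and Osmr from -0.00090 to 0.17. The relation of C4b and S1pr3 within WT was 0.12 with libraries rescaled to the same total.

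The differences of the log2 ratio of C4b to each gene are descriptions, and several depended on the setting. With a pseudocount of 5 they were 0.85 for Cd44, 1.44 for Steap4 and, with the sign turned, 0.25 for Timp1. Without the 2 choroid plexus-rich mice that for Osmr was 0.49. With single mice left out they ran from 0.40 to 0.59 for Serpina3n, 0.41 to 0.59 for Osmr, 0.71 to 1.11 for Cd44 and 1.34 to 2.37 for Steap4.

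DESeq2 called 616 genes, among them 1 astrocyte identity gene, 1 microglial, 5 choroid plexus and 8 oligodendrocyte genes as lower, and adding sex to the terms left 98 genes called, and the call for Cd46 was lost, so that 0 other complement genes were higher. All genes called fell to 64 without WT 490 and to 59 without the 2 choroid plexus-rich mice, and rose to 515 without WT 522 and to 343 at a threshold of 0.1. Timp1 and Steap4 are limited by depth, at 0 to 36 reads per library. No paired analysis was possible because the mice carry individual numbers that no label pairs across genotypes. The causes of these changes were not tested.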
